A study of Arabidopsis thaliana with 24 samples.

Results

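The 7 genes described here encode enzymes of tetrapyrrole synthesis, the route that makes haem and chlorophyll. They are HEMA2 (AT1G09940), GSA1 (AT5G63570), HEME1 (AT3G14930), HEME2 (AT2G40490), CHLI2 (AT5G45930), CHLM (AT4G25080) and geranylgeranyl reductase (AT1G74470, named by its locus). They are a named selection of genes of the route, made with earlier results of these data known, and not all of its genes on the arrays. Each had exactly 1 probe set that named it alone in the platform annotation, so 7 of the 22217 probe sets of the arrays are described. The 6 other genes of the route that also had a probe set of their own (HEMA3, HEMB1, hemb2, hemf2, PORB and SIRB) are given beside them. Whole Arabidopsis seedlings of the Col-0 accession were measured in 4 genotypes, which were the mutants fc2 (allele fc2-1), flu (no allele given) and fc1 (allele fc1-1) and the wild type wt. All of them were plated, kept cold in the dark, received 2 h of light to start germination, grew for 4 days without light at 22 °C and were then exposed to 120 µmol per square metre and second for 0, 30 or 120 min. Each genotype and time had 2 arrays, 24 in all, called biological replicates in the labels, which do not say whether the seedlings came from separate plates or days. The p-values below therefore measure the spread between these arrays, and 2 arrays per group limit the precision of every value. The genes FC2, FLU and FC1 had no probe set that named them alone, so the genotype labels were not checked by them.

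In plants the tetrapyrrole route starts from glutamate bound to its transfer RNA and makes 5-aminolevulinic acid, which is built up into protoporphyrin IX. There it divides: ferrochelatases insert iron and give haem, and magnesium chelatase inserts magnesium and gives, by way of protochlorophyllide, chlorophyll. In flowering plants protochlorophyllide is reduced only in the light, and free intermediates of the route produce singlet oxygen when lit. FLU holds back the first steps, so that protochlorophyllide accumulates in the mutant during darkness, whereas FC1 and FC2 are both ferrochelatases.

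HEMA2 encodes a glutamyl-tRNA reductase, the first enzyme that is specific to the route, and GSA1 a glutamate-1-semialdehyde aminotransferase, which completes 5-aminolevulinic acid. HEME1 and HEME2 encode uroporphyrinogen decarboxylases, which act on the common trunk before protoporphyrin IX. CHLI2 is an isoform of the ATPase subunit I of magnesium chelatase, and CHLM methylates magnesium protoporphyrin IX, so both belong to the chlorophyll branch. Geranylgeranyl reductase saturates the side chain that becomes the phytol tail of chlorophyll and of tocopherol.

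Values are the log2 signals that the authors deposited, made with RMA, and a difference of 1 is a 2-fold change. Differences are given as log2 differences of group means ± SE from a limma model over all 24 arrays (n = 2 arrays per group). Called means a Benjamini-Hochberg adjusted p under 0.05 over all 22217 probe sets of the comparison, and that share of called probe sets is printed beside the first count of the 7 genes in each comparison. Signals of different probe sets are not compared with each other. Where the arrays of 2 groups are said not to overlap, the share of all probe sets separated in that way was not counted. In whole seedlings, fewer cells of a type and less RNA per cell cannot be told apart.

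The arrays were alike in median signal, between 5.98 and 6.23, but both arrays of flu at 30 min had a narrow spread of signals, with interquartile ranges of 3.76 and 3.59. Replicate 2 of wt at 120 min had 3.77, and all other arrays lay between 3.82 and 4.1. The mean signal of the reference genes AT4G34270 and AT2G28390 was also low on these 3 arrays, at 7.52 and 7.49 in flu at 30 min and 7.36 on replicate 2 of wt at 120 min, against 7.59 to 7.96 on all others. The 2 genes did not move alike in flu at 30 min. AT2G28390 had a group mean of 7.225 there, against 7.615 in dark flu and 7.795 in wt at 30 min. AT4G34270 had 7.785, against 7.925 and 7.74. The mean of 4 genes of seed maturation (OLEO3, PAP85, M17, M10) ranged over the arrays from 5.29 to 9.62. It was 5.84 and 5.85 in dark fc2, against 8.14 and 7.36 in dark wt. The 4 genes did not move as 1: group means in dark fc2 and dark wt were 10.14 and 10.3 for OLEO3 but 3.195 and 7.465 for M17. In flu the group mean of OLEO3 fell from 9.85 at 0 min to 6.97 at 120 min, while those of PAP85, M17 and M10 rose. The 2 flu arrays at 120 min were far apart, with SDs of 1.52 for PAP85, 2.28 for M17 and 1.61 for M10. Their means of the 4 genes were 9.62 and 7.61, against 8.71 and 8.48 in dark flu. With the mean of the 4 as a covariate the number of the 7 genes called stayed within 1.5 times in every comparison made. The 6 markers of photosynthetic cells (all measured) averaged 8.36 to 8.75 in flu at 120 min, against 11.1 to 11.2 in dark flu, and had 10.05 to 10.32 in flu at 30 min, against 11.60 to 11.71 in wt. At 120 min they had 11.2 in fc2 and 12.1 to 12.2 in fc1, against 12.1 to 12.3 in wt. LHCB4.3 alone of the 6 was not lower in flu after light, with group means of 7.12 at 0 min, 7.885 at 30 min and 7.505 at 120 min. Of 5 root markers EXPA7 and AT4G26010 were measured, and their mean in flu was 4.85 to 5.16 at 0 min, 5.81 to 6.35 at 30 min and 5.91 to 6.34 at 120 min. The part of these shifts in the results below was not tested beyond the covariates named.

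**Figure D1:**
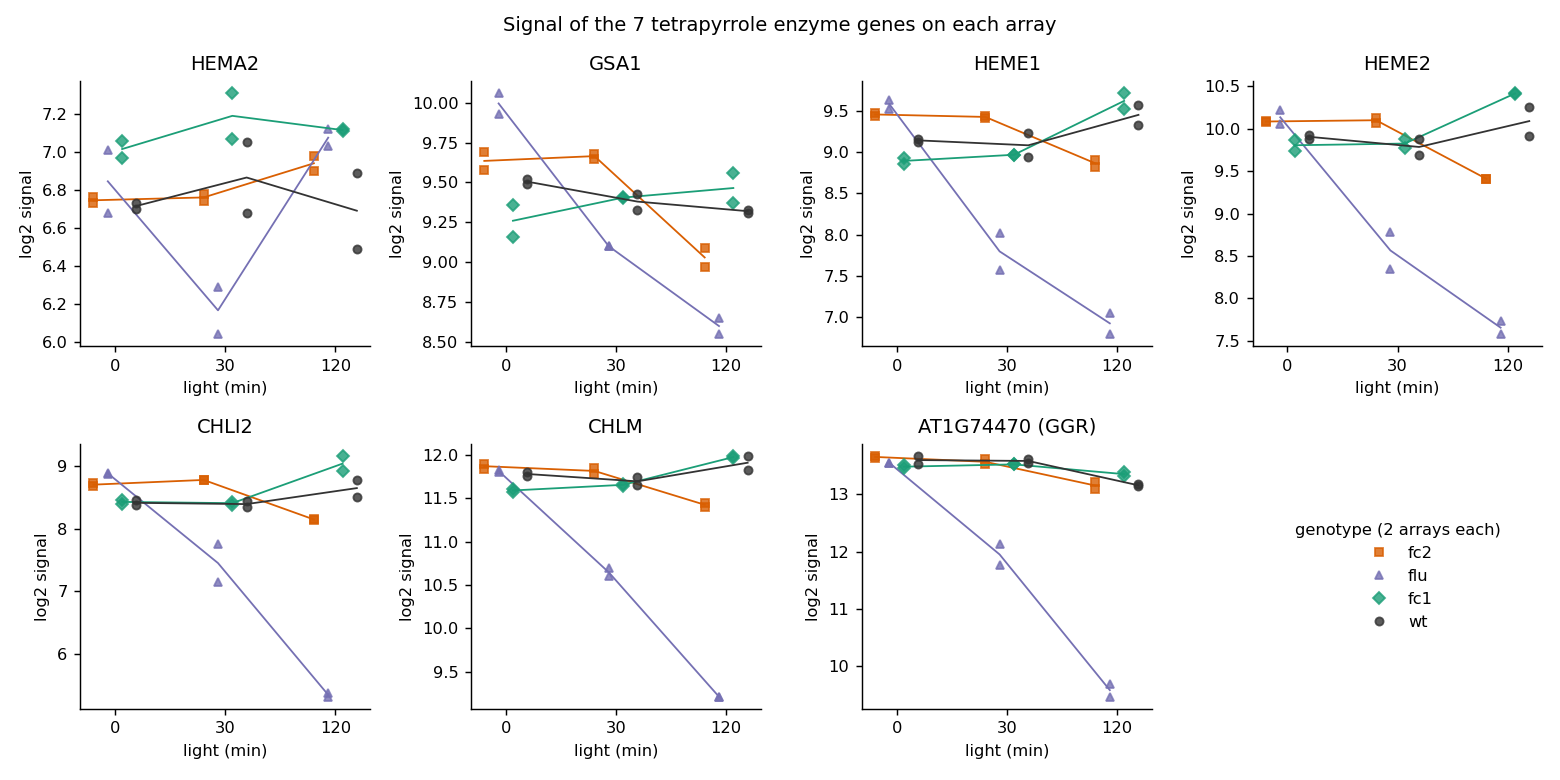
Log2 signal of each of the 7 genes (1 panel per gene, each with its own vertical axis) against minutes of light, spaced as categories. Points are single arrays, 2 per genotype and time, and lines join group means. From GSA1 to geranylgeranyl reductase the flu points lie lowest of all genotypes at 30 and 120 min, while HEMA2 in flu is low at 30 min, at 6.29 and 6.04, and back at 7.03 and 7.12 at 120 min.

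The largest changes were in flu. Within 30 min of light all 7 genes fell in flu, and at 120 min 6 of 7 were lower than in the dark, from GSA1 (2.63-fold) to geranylgeranyl reductase (15.6-fold). HEMA2 was the exception: it fell at 30 min and was no longer below its dark level at 120 min. The median change of the 7 genes in flu was -1.43 at 30 min and -2.61 at 120 min, against 0.06 and 0.01 over all probe sets. Called changes were common in flu, with 48.1% of all probe sets called at 30 min (23.8% lower) and 46.1% at 120 min (21.9% lower).

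Of the enzymes that make 5-aminolevulinic acid, GSA1 had signals of 10.06 and 9.93 in flu at 0 min, 9.1 and 9.1 at 30 min and 8.55 and 8.65 at 120 min. It was thus lower at each later time with no overlap between the groups. GSA1 fell by 0.90 ± 0.10 at 30 min (adjusted p = 7.21e-07) and by 1.40 ± 0.10 at 120 min (adjusted p = 7.22e-10). In wt the signals of GSA1 were 9.49 and 9.52 at 0 min, 9.33 and 9.43 at 30 min and 9.33 and 9.31 at 120 min, and neither change was called (-0.12 ± 0.10 and -0.18 ± 0.10).

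HEMA2 had 6.68 and 7.01 in flu at 0 min, 6.29 and 6.04 at 30 min and 7.03 and 7.12 at 120 min. The 30 min arrays lay below all other arrays of the study for this gene. The fall at 30 min was 0.68 ± 0.14 on the log2 scale (adjusted p = 0.000875), and between 30 and 120 min HEMA2 rose by 0.91 ± 0.14 (adjusted p = 8.68e-05; 0.54 with the interquartile range of each array as a covariate). It was the 1 gene of the 7 that rose in that interval, while the other 6 fell further. With that covariate, an alternative chosen after seeing the data, the value at 30 min was -0.29 and no longer called (adjusted p = 0.117). At 120 min against the dark HEMA2 differed by 0.23 ± 0.14, which was not called (adjusted p = 0.219), and the call was gained with the covariate (0.25, adjusted p = 0.0421) and with scaling to the reference genes (0.39, adjusted p = 0.0225).

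In the common trunk, HEME1 had 9.64 and 9.53 in flu at 0 min, 8.02 and 7.57 at 30 min and 6.79 and 7.05 at 120 min. HEME2, which encodes the same enzyme activity, had 10.05 and 10.22 at 0 min, 8.78 and 8.35 at 30 min and 7.58 and 7.73 at 120 min. Both genes stepped down at each time, and no group overlapped the next. HEME1 fell by 1.79 ± 0.14 at 30 min and by 2.67 ± 0.14 at 120 min (adjusted p = 1.78e-08 and 1.65e-11), and HEME2 by 1.57 ± 0.13 and 2.48 ± 0.13 (adjusted p = 4.92e-08 and 2.35e-11). More of their fall came in the first 30 min than between 30 and 120 min, where HEME1 changed by -0.88 ± 0.14 and HEME2 by -0.91 ± 0.13. The sizes of the 2 steps rest on the flu arrays at 30 min, whose spread of signals was narrow. The median of the 7 genes was -1.43 at 30 min and -0.91 between 30 and 120 min as deposited. With the interquartile range covariate these medians were -1.14 and -1.18.

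In the chlorophyll branch, CHLI2 had 8.87 and 8.89 in flu at 0 min, 7.75 and 7.15 at 30 min and 5.38 and 5.32 at 120 min. The 2 arrays at 30 min differed from each other by more than those of any other time in flu for this gene, yet both lay between the dark and the 120 min arrays. CHLI2 fell by 1.43 ± 0.14 at 30 min and by 3.53 ± 0.14 at 120 min (adjusted p = 3.24e-07 and 7.62e-13). Ranked from the lowest change of all probe sets in flu at 120 min, CHLI2 stood at position 67.

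CHLM had 11.83 and 11.8 at 0 min, 10.69 and 10.6 at 30 min and 9.21 and 9.21 at 120 min in flu, with changes of -1.17 ± 0.08 and -2.61 ± 0.08 (adjusted p = 6.25e-09 and 7.74e-14). Its replicates were the closest of the chlorophyll-branch genes at 120 min. Geranylgeranyl reductase had 13.55 and 13.54 in flu at 0 min, 12.13 and 11.77 at 30 min and 9.7 and 9.47 at 120 min. It fell by 1.60 ± 0.11 at 30 min and by 3.96 ± 0.11 at 120 min (adjusted p = 5.21e-09 and 2.79e-14), position 26 from the lowest of all probe sets at 120 min. For CHLI2, CHLM and geranylgeranyl reductase the second interval brought the greater part of the change. It was also the longer interval, and rates per minute were not compared. The changes between 30 and 120 min were -2.1 ± 0.14, -1.44 ± 0.08 and -2.37 ± 0.11. All 7 genes were called in that interval (1 higher and 6 lower), against 37% of all probe sets (19.1% higher, 17.9% lower).

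**Figure D2:**
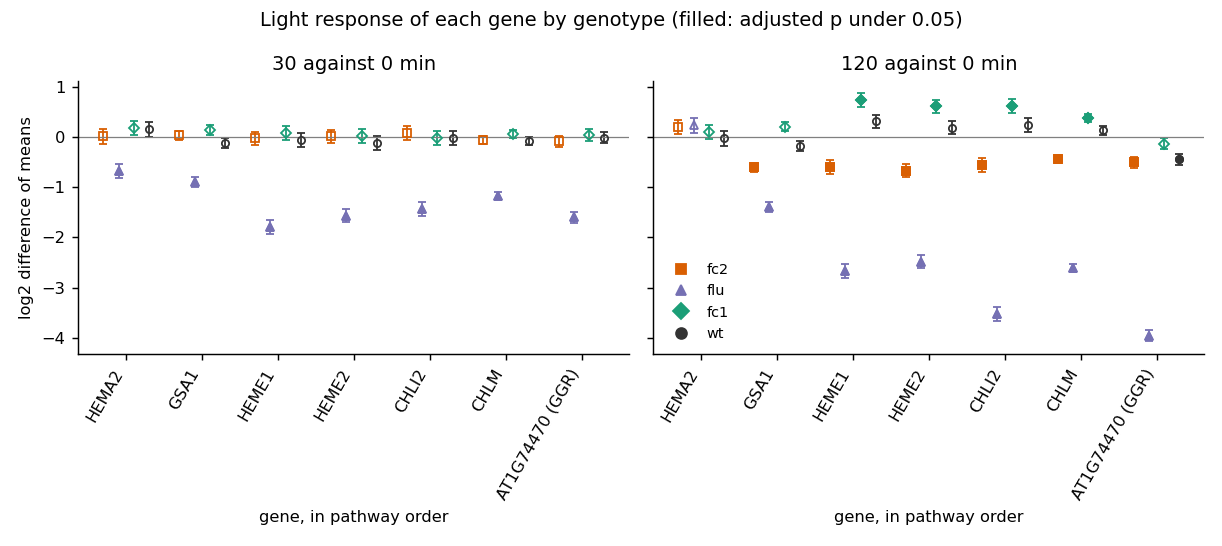
Log2 difference of group means (vertical axis) for the 7 genes in pathway order, at 30 min (left panel) and 120 min (right panel) against 0 min, with 1 symbol per genotype. Bars are SE from limma (n = 2 arrays per group), and filled symbols had an adjusted p under 0.05. At 30 min the filled symbols are those of flu, between -0.68 and -1.79, and at 120 min fc2 lies below 0 and fc1 above 0 for HEME1, HEME2, CHLI2 and CHLM.

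In fc2 the first 30 min of light changed none of the 7 genes beyond the test, and 6 of 7 were lower at 120 min than in the dark. At 30 min the values lay between -0.09 and 0.08, and 3.02% of all probe sets were called (none of the 7 genes, whose median was 0.02 against -0.01 over all probe sets). At 120 min the falls were similar along the route, between 0.45 and 0.68 on the log2 scale, and HEMA2 alone was not called (0.20 ± 0.14). That median was -0.56, against -0.04 over all probe sets, of which 24.8% were called and 14% were called lower. In flu the 6 genes spread over a much wider range at the same time, from -1.40 to -3.96.

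GSA1 had 9.58 and 9.69 in fc2 at 0 min, 9.68 and 9.65 at 30 min and 8.97 and 9.09 at 120 min. The dark and 30 min arrays overlapped, and both 120 min arrays lay below them. It fell by 0.60 ± 0.10 (adjusted p = 0.000103). HEME1 had 9.48 and 9.44, then 9.42 and 9.44, then 8.82 and 8.91 at the 3 times in fc2, and HEME2 had 10.09 and 10.08, then 10.13 and 10.07, then 9.41 and 9.41. Both decarboxylase genes thus held their dark level at 30 min within the spread of the arrays and were lower on both arrays at 120 min. HEME1 fell by 0.60 ± 0.14 (adjusted p = 0.00328) and HEME2 by 0.68 ± 0.13 (adjusted p = 0.000765).

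CHLI2 had 8.68 and 8.72 in fc2 at 0 min, 8.77 and 8.78 at 30 min and 8.13 and 8.16 at 120 min. Its fall of 0.56 ± 0.14 was called (adjusted p = 0.00702), but not without replicate 2 of dark fc2 (-0.54, adjusted p = 0.0527). CHLM, with 11.9 and 11.84 at 0 min, 11.78 and 11.85 at 30 min and 11.45 and 11.4 at 120 min, showed the smallest fall of the 6 genes (0.45 ± 0.08, adjusted p = 0.000469). Geranylgeranyl reductase had 13.63 and 13.67, then 13.52 and 13.61, then 13.09 and 13.21, and fell by 0.50 ± 0.11 (adjusted p = 0.00224). HEMA2 stayed between 6.73 and 6.98 on all fc2 arrays, with its 2 highest values at 120 min. Between 30 and 120 min the same 6 genes were called lower in fc2, where 19.4% of all probe sets were called and 9.99% were called lower, with values from -0.39 to -0.69. Of these, CHLM (-0.30, adjusted p = 0.0563) and geranylgeranyl reductase (-0.32, adjusted p = 0.112) were not called with reference-gene scaling. Without replicate 1 of fc2 at 120 min HEME1 (adjusted p = 0.0602) and geranylgeranyl reductase (adjusted p = 0.11) were not called, nor was the last without replicate 2 of fc2 at 30 min (adjusted p = 0.0937).

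In fc1 the direction at 120 min was the opposite of that in fc2 for HEME1, HEME2, CHLI2 and CHLM, which all rose. None of the 7 genes was called in fc1 at 30 min (values from -0.02 to 0.18), where 7.22% of all probe sets were. At 120 min 4 of 7 were called higher, where 34.4% of all probe sets were called and 15.3% were called higher. The median of the 7 genes was 0.39, against -0.01 over all probe sets, and with reference-gene scaling, which moved the median over all probe sets by 0.26, it was 0.64 with HEMA2 and GSA1 called higher as well, where 38.4% of all probe sets were called.

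HEME1 had 8.93 and 8.86 in fc1 at 0 min, 8.97 and 8.97 at 30 min and 9.53 and 9.72 at 120 min, a rise of 0.73 ± 0.14 (adjusted p = 0.000362). HEME2 had 9.87 and 9.74, then 9.88 and 9.77, then 10.42 and 10.41, a rise of 0.61 ± 0.13 (adjusted p = 0.00121). For both genes the 120 min arrays lay above all earlier arrays of fc1. CHLI2 had 8.39 and 8.46 at 0 min, 8.38 and 8.43 at 30 min and 8.91 and 9.16 at 120 min, and rose by 0.61 ± 0.14 (adjusted p = 0.00233). CHLM had 11.57 and 11.61, then 11.67 and 11.64, then 11.99 and 11.96, and rose by 0.39 ± 0.08 (adjusted p = 0.00111).

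The first and the last enzymes of the series did not pass the test in fc1 at 120 min. GSA1, with 9.36 and 9.16 at 0 min, 9.41 and 9.4 at 30 min and 9.37 and 9.56 at 120 min, had a difference of 0.21 ± 0.10 (adjusted p = 0.113). HEMA2, with 7.06 and 6.97, then 7.07 and 7.31, then 7.12 and 7.11, had 0.10 ± 0.14. For both genes the 120 min arrays lay above the dark ones and overlapped those at 30 min. Geranylgeranyl reductase had 13.51 and 13.45 at 0 min, 13.52 and 13.52 at 30 min and 13.39 and 13.31 at 120 min, a difference of -0.13 ± 0.11 (adjusted p = 0.421). Between 30 and 120 min the same 4 genes were called higher in fc1, by 0.32 to 0.66, where 26.6% of all probe sets were called and 12.9% were called higher. Of these CHLM was not called without replicate 2 of fc1 at 30 min (0.31, adjusted p = 0.0524).

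In wt only geranylgeranyl reductase was called, and it fell. None of the 7 genes was called at 30 min, where 6.41% of all probe sets were, and the values lay between -0.13 and 0.15. At 120 min 1 of 7 was called, where 30.7% of all probe sets were called and 18.8% were called lower. Geranylgeranyl reductase had 13.52 and 13.67 at 0 min, 13.54 and 13.62 at 30 min and 13.17 and 13.14 at 120 min, and fell by 0.44 ± 0.11 (adjusted p = 0.00473). This call was lost without replicate 2 of dark wt (-0.37, adjusted p = 0.0627) and with reference-gene scaling (-0.23, adjusted p = 0.195).

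Which of the 7 genes were called in wt at 120 min depended on the scaling. Replicate 2 of this group, whose reference genes were the lowest of all arrays, entered that comparison. With reference-gene scaling, which moved the median over all probe sets from -0.03 to 0.18, 4 of 7 genes were called, where 26.8% of all probe sets were, and all 4 were higher: HEME1 (0.52), HEME2 (0.40), CHLI2 (0.45) and CHLM (0.34). As deposited, these 4 had 0.31 ± 0.14, 0.19 ± 0.13, 0.24 ± 0.14 and 0.13 ± 0.08 and were not called. HEME1 had 9.16 and 9.13 in wt at 0 min, 8.94 and 9.23 at 30 min and 9.58 and 9.33 at 120 min, and HEME2 had 9.88 and 9.93, then 9.69 and 9.88, then 10.26 and 9.92. CHLI2 had 8.37 and 8.45, then 8.34 and 8.44, then 8.78 and 8.51, and CHLM had 11.8 and 11.76, then 11.74 and 11.65, then 11.99 and 11.83. The 120 min arrays lay above the dark arrays for HEME1, CHLI2 and CHLM and overlapped them for HEME2, but the share of all probe sets separated in this way was not counted.

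Between 30 and 120 min in wt, geranylgeranyl reductase fell by 0.43 ± 0.11 (adjusted p = 0.00715) and was the 1 gene called of 7, where 27.4% of all probe sets were called and 16.2% were called lower. With reference-gene scaling it was not called (-0.14), and HEME1, HEME2, CHLI2 and CHLM were called higher (0.50 to 0.66), where 34.5% of all probe sets were called. As deposited, HEME1 (0.37 ± 0.14, adjusted p = 0.0545) and CHLM (0.22 ± 0.08, adjusted p = 0.0613) lay just beyond the threshold in this interval and were called higher with trended and robust variances or without the dimmest 40% of probe sets. Without replicate 2 of wt at 120 min 4 of 7 were called, 3 of them higher, and without replicate 2 of wt at 30 min 2 were called, where 25.8% of all probe sets were called in either case. HEMA2 varied between the wt replicates, with 6.7 and 6.73 at 0 min, 6.68 and 7.05 at 30 min and 6.89 and 6.49 at 120 min, and had a difference of -0.03 ± 0.14 at 120 min against the dark.

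The difference between the light response of each mutant and that of wt was tested directly. These comparisons, and those of each mutant with wt at 1 time, share the wt arrays. At 30 min all 7 genes responded more negatively in flu than in wt (27.9% of all probe sets were called, 14% lower), and none of 7 differed in fc2 (0.441% called) or fc1 (0.189% called). At 120 min 6 of 7 genes differed in flu (38.3% called, 15.3% lower) and 4 of 7 in fc2 (9.21% called, 4.45% lower), all with a lower response than in wt. None of 7 differed in fc1 at 120 min (1% called), where the values lay between 0.13 and 0.43 and the lowest adjusted p was 0.253, for GSA1.

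In flu the called differences at 120 min were smallest for GSA1 and largest for CHLI2. The response of GSA1 was lower in flu than in wt by 1.21 ± 0.14 (adjusted p = 9.75e-07), that of HEME1 by 2.98 ± 0.19, that of HEME2 by 2.67 ± 0.19, that of CHLM by 2.74 ± 0.12, that of geranylgeranyl reductase by 3.52 ± 0.16 and that of CHLI2 by 3.77 ± 0.20, on the log2 scale. HEMA2 had 0.26 ± 0.20 and was not called (adjusted p = 0.379). In fc2 at 120 min the difference was -0.91 ± 0.19 for HEME1 (adjusted p = 0.0055), -0.86 ± 0.19 for HEME2 (adjusted p = 0.0057), -0.79 ± 0.20 for CHLI2 (adjusted p = 0.0173) and -0.58 ± 0.12 for CHLM (adjusted p = 0.0034). The call of CHLI2 was lost with the seed-maturation covariate (-0.71, adjusted p = 0.0556) and without replicate 1 of dark wt, either dark fc2 array, replicate 1 of wt at 120 min or replicate 1 of fc2 at 120 min (-0.66 to -0.81). GSA1 was not called (-0.42 ± 0.14, adjusted p = 0.0618), but was with reference-gene scaling (-0.59, adjusted p = 0.0421), with trended and robust variances and without the dimmest 40% of probe sets. Geranylgeranyl reductase, which fell in fc2 and in wt, had a difference of -0.06 ± 0.16 (95% confidence interval -0.39 to 0.27).

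The light responses of the 2 ferrochelatase mutants were also set against each other at 120 min, a comparison chosen after the data were seen. It called 5 of 7 genes, all with a lower response in fc2 than in fc1, where 16.2% of all probe sets were called and 8.13% were called lower. The differences were -0.81 ± 0.14 for GSA1, -1.33 ± 0.19 for HEME1, -1.29 ± 0.19 for HEME2, -1.17 ± 0.20 for CHLI2 and -0.83 ± 0.12 for CHLM, with adjusted p-values between 7.21e-05 and 0.000532. HEMA2 (0.10 ± 0.20) and geranylgeranyl reductase (-0.37 ± 0.16, adjusted p = 0.13) were not called, the second of them being called with reference-gene scaling (-0.59, adjusted p = 0.0331).

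**Figure D3:**
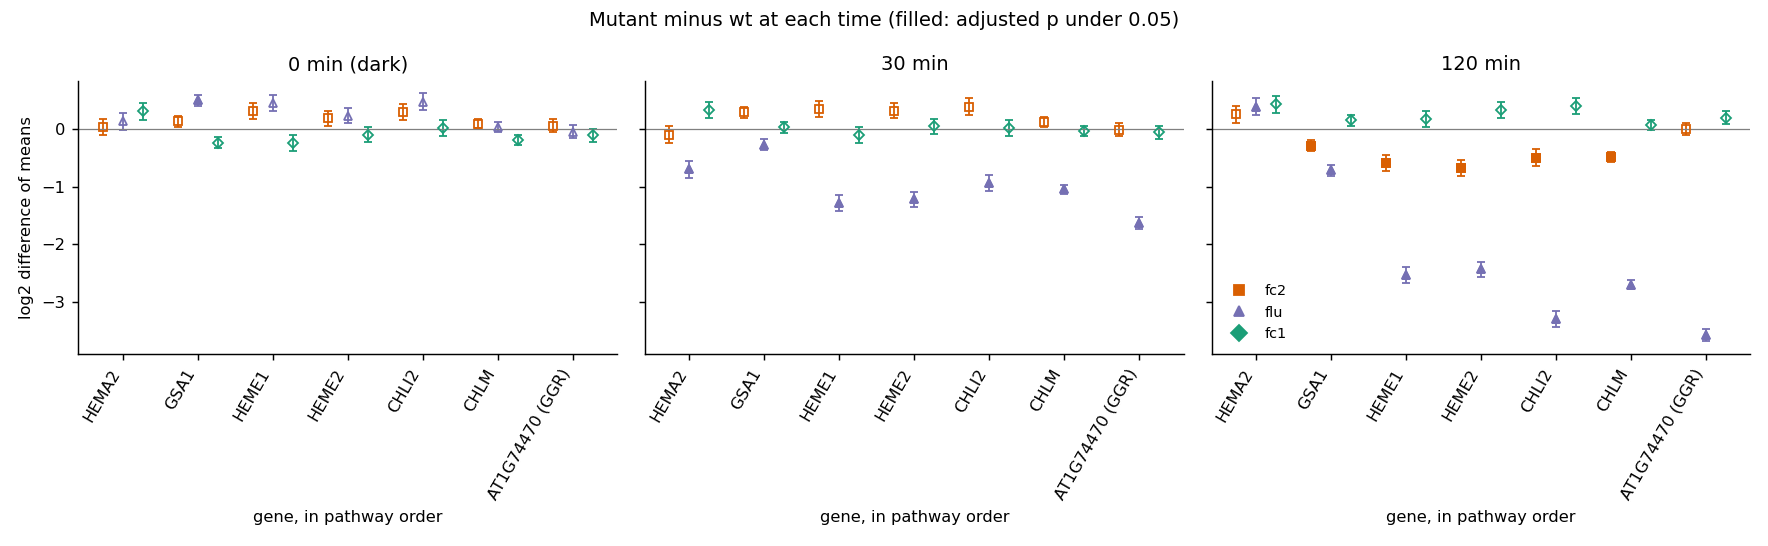
Log2 difference of each mutant minus wt (vertical axis) for the 7 genes in pathway order, at 0, 30 and 120 min (panels). Bars are SE from limma (n = 2 arrays per group), and filled symbols had an adjusted p under 0.05. In the dark only GSA1 in flu is filled, at 0.49, and at 120 min fc2 lies between 0 and the much lower values of flu for GSA1, HEME1, HEME2, CHLI2 and CHLM.

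At 0 min, after the days in the dark, few of the 7 genes were called in the mutants against wt. None of 7 genes was called in fc2 (0.036% of all probe sets were called) or in fc1 (2.74% called), and 1 of 7 in flu (3.32% called, 1.62% higher). That gene was GSA1, with 10.06 and 9.93 in flu against 9.49 and 9.52 in wt, a difference of 0.49 ± 0.10 (adjusted p = 0.00747), not called with reference-gene scaling (0.41, adjusted p = 0.0954), without replicate 1 of dark wt (0.48, adjusted p = 0.0918) or without replicate 1 of dark flu (0.43, adjusted p = 0.109). CHLI2 (0.47 ± 0.14, adjusted p = 0.0895) and HEME1 (0.44 ± 0.14, adjusted p = 0.102) had similar values and both flu arrays above both wt arrays.

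In dark fc2 all 7 values were above 0, from 0.03 to 0.32, but none of the 7 passed the test (adjusted p = 0.995 for each). For 5 genes both fc2 arrays lay above both wt arrays, and the share of all probe sets separated in this way was not counted. In dark fc1 6 values lay between -0.25 and 0.01 and HEMA2 had 0.30 ± 0.14 (adjusted p = 0.233). With reference-gene scaling, which moved the median of all probe sets by -0.22, GSA1, HEME1 and CHLM were called lower in dark fc1 (-0.47, -0.47 and -0.41), where 17.6% of all probe sets were called.

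At 30 min all 7 genes were lower in flu than in wt, where 40.4% of all probe sets were called and 19% were called lower. Geranylgeranyl reductase had 12.13 and 11.77 in flu against 13.54 and 13.62 in wt (-1.63 ± 0.11, adjusted p = 5.06e-09), HEME1 8.02 and 7.57 in flu against 8.94 and 9.23 in wt (-1.29 ± 0.14), and CHLM 10.69 and 10.6 in flu against 11.74 and 11.65 in wt (-1.05 ± 0.08). For none of the 7 did the flu and wt arrays overlap, but the share of all probe sets without such overlap was not counted. GSA1 had the smallest difference, -0.28 ± 0.10 (adjusted p = 0.0267), which was -0.02 with reference-gene scaling and was not called without replicate 2 of wt, without either flu array or with the interquartile range covariate. HEMA2 (-0.70 ± 0.14, adjusted p = 0.000911) was not called with the array interquartile range as a covariate (-0.25, adjusted p = 0.229).

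None of 7 genes was called in fc2 or in fc1 at 30 min against wt, where 1.52% and 18.4% of all probe sets were called. The share for fc1 was 10.5% with the seed-maturation covariate, and it depended strongly on which wt array was left out. In fc2 the values of GSA1, HEME1, HEME2 and CHLI2 were 0.29 ± 0.10, 0.35 ± 0.14, 0.32 ± 0.13 and 0.39 ± 0.14, with adjusted p-values from 0.205 to 0.337. The fc2 arrays lay above the wt arrays for 5 of the 7 genes, but the share of all probe sets separated in this way was not counted. In fc1 6 values lay between -0.12 and 0.04, and HEMA2 had 0.33 ± 0.14 (adjusted p = 0.128), called without replicate 2 of wt at 30 min (0.51, adjusted p = 0.0322).

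At 120 min all 7 genes were called in flu against wt, 6 lower and HEMA2 higher, where 46.6% of all probe sets were called, 18.2% lower and 28.4% higher. CHLI2 had 5.38 and 5.32 in flu against 8.78 and 8.51 in wt (-3.30 ± 0.14, adjusted p = 1.49e-12), and geranylgeranyl reductase 9.7 and 9.47 in flu against 13.17 and 13.14 in wt (-3.57 ± 0.11, adjusted p = 2.73e-14). HEME1 (-2.54 ± 0.14), HEME2 (-2.44 ± 0.13) and CHLM (-2.7 ± 0.08) formed a middle group, and GSA1 had -0.72 ± 0.10 (adjusted p = 4.68e-06). HEMA2, with 7.03 and 7.12 in flu against 6.89 and 6.49 in wt, was higher by 0.39 ± 0.14 (adjusted p = 0.0365), and this call was lost with reference-gene scaling (0.25, adjusted p = 0.14), without replicate 2 of wt (0.19, adjusted p = 0.398) and without either flu array.

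In fc2 at 120 min 5 of 7 genes were lower than in wt, where 17.2% of all probe sets were called and 7.53% were called lower. HEME2 had 9.41 and 9.41 in fc2 against 10.26 and 9.92 in wt (-0.68 ± 0.13, adjusted p = 0.00124), and CHLM 11.45 and 11.4 in fc2 against 11.99 and 11.83 in wt (-0.49 ± 0.08, adjusted p = 0.000372). HEME1 had 8.82 and 8.91 in fc2 against 9.58 and 9.33 in wt (-0.59 ± 0.14, adjusted p = 0.00556), and its call was lost without replicate 1 of wt (-0.47, adjusted p = 0.0647) and without replicate 1 of fc2 (-0.55, adjusted p = 0.0546). The calls of CHLI2 (-0.50 ± 0.14, adjusted p = 0.0205) and GSA1 (-0.29 ± 0.10, adjusted p = 0.0445) were lost more often: CHLI2 was lost without replicate 1 of wt or either fc2 array, and GSA1 was lost with the replicate block (-0.29, adjusted p = 0.0538), with both covariates and without any 1 of the 4 arrays compared. The number of called genes was 2 without replicate 1 of wt at 120 min (15.3% of all probe sets called), 2 without replicate 1 of fc2 at 120 min (10.7%) and 3 without its replicate 2 (10.8%). Geranylgeranyl reductase did not pass the test, with 13.09 and 13.21 in fc2 against 13.17 and 13.14 in wt (-0.01 ± 0.11, 95% confidence interval -0.24 to 0.23).

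None of 7 genes was called in fc1 against wt at 120 min, where 9.25% of all probe sets were called. All 7 values were above 0, from 0.07 for CHLM to 0.43 ± 0.14 for HEMA2 (adjusted p = 0.0732). Without replicate 1 of wt at 120 min HEMA2, HEME2 and CHLI2 were called (0.63, 0.50 and 0.53), where 19.7% of all probe sets were, and without the dimmest 40% of probe sets HEMA2 was called (adjusted p = 0.0491). HEMA2 lay above both wt arrays on both fc1 arrays at each of the 3 times, although no comparison of this gene in fc1 passed the test as deposited. The share of all probe sets separated in this way was not counted.

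Set against flu, the other mutant in which these genes fell, fc2 kept higher signals. At 30 min all 7 genes were higher in fc2 than in flu (47.9% of all probe sets were called, 22.5% higher), from GSA1 (0.57 ± 0.10) to HEME1 (1.64 ± 0.14). The value of HEMA2 there, 0.60 ± 0.14, was 0.08 and not called with the array interquartile range as a covariate (adjusted p = 0.789). At 120 min 6 of 7 were higher in fc2 (37.5% called, 16% higher), and geranylgeranyl reductase differed most, with 13.09 and 13.21 in fc2 against 9.7 and 9.47 in flu, which is 11.8-fold. CHLI2 was 6.94-fold and CHLM 4.64-fold higher in fc2, and GSA1 1.35-fold. HEMA2 had -0.14 ± 0.14 (adjusted p = 0.525), with both fc2 arrays, at 6.9 and 6.98, below both flu arrays, at 7.03 and 7.12, and was called lower with the interquartile range covariate (-0.28, adjusted p = 0.0442).

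Across the 12 group means the 5 genes from HEME1 to geranylgeranyl reductase followed one another closely. The 10 correlations between pairs of them were 0.921 to 0.990, and those of GSA1 with the 5 were 0.794 to 0.848. HEMA2 had correlations of -0.06 to 0.16 with the other 6. HEME1 and HEME2, which encode the same activity, had the highest value of all pairs (0.990). These are descriptions over 12 points that share their arrays, and the low flu points at 30 and 120 min weigh on each of them.

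Among 13164 probe sets with 1 gene outside the 7, the gene most like the mean of the 7 over the 12 group means was AT3G15110 (r = 0.994), followed by AT1G52100 (0.993), AT3G13120 (0.991), AT1G22700 (0.991) and AT5G10690 (0.991). The gene most like HEMA2 was AT3G11960 (0.962), and that most like GSA1 was MRL7-L (0.980). CLPP4, a subunit of the plastid Clp protease, was most like HEME1 (0.991) and second for HEME2 (0.990), after AT5G10690 (0.992). For CHLI2 the nearest were AT2G43560 (0.992) and TAPX, the thylakoid ascorbate peroxidase (0.990), for CHLM AT1G32470 (0.996) and the light-harvesting gene LHCB4.1 (0.995), and for geranylgeranyl reductase AT1G64510 (0.993) and AT5G52970 (0.991).

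**Figure D4:**
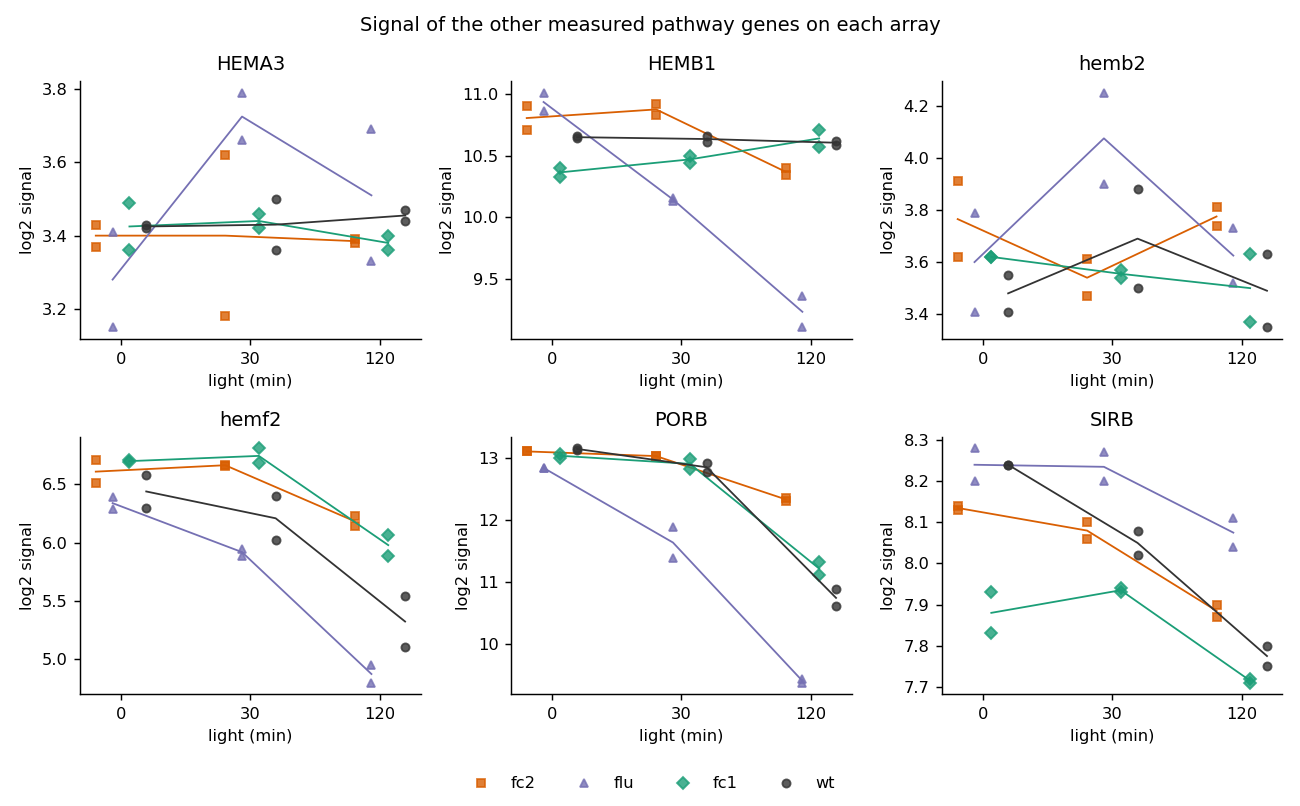
Log2 signal of the 6 other measured genes of the route (panels with their own vertical axes) against minutes of light, spaced as categories. Points are single arrays, 2 per genotype and time, and lines join group means. HEMB1 in flu declines to 9.11 and 9.36 at 120 min, PORB declines in all genotypes but least in fc2, and HEMA3 and hemb2 stay below 4.3 on every array.

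Of 36 other genes of the route and its regulation that were looked for, 6 had a probe set that named them alone in the platform annotation. The rest may lie among the 482 probe sets given several genes or the 8564 given none, which were not searched. HEMB1, the 5-aminolevulinic acid dehydratase that acts between GSA1 and HEME1, had 11.01 and 10.86 in flu at 0 min, 10.13 and 10.16 at 30 min and 9.11 and 9.36 at 120 min. It fell by 0.79 ± 0.10 at 30 min and by 1.70 ± 0.10 at 120 min (adjusted p = 8.4e-11), between the changes of GSA1 and HEME1 at 120 min. In fc2 HEMB1 fell by 0.43 ± 0.10 at 120 min (adjusted p = 0.00291) and in fc1 it rose by 0.28 ± 0.10 (adjusted p = 0.0389), so its directions were those of HEME1, HEME2, CHLI2 and CHLM.

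PORB, a protochlorophyllide oxidoreductase of the chlorophyll branch, fell at 120 min in fc2 by 0.77 ± 0.13, and in wt it fell by 2.40 ± 0.13. Its signal at 120 min was 12.35 and 12.31 in fc2, 9.44 and 9.38 in flu, 11.11 and 11.32 in fc1 and 10.61 and 10.88 in wt, so that PORB was higher in fc2 than in wt by 1.59 ± 0.13 (adjusted p = 1.52e-07). The gene hemf2, a homologue of coproporphyrinogen oxidase genes, was likewise higher in fc2 than in wt at 120 min (0.86 ± 0.14, adjusted p = 0.000332), as well as in fc1 (0.66 ± 0.14, adjusted p = 0.00959). At that time 2 of these 6 genes were called higher and none lower in fc2 against wt, where 9.71% of all probe sets were called higher, while 5 of the 7 genes were called lower there.

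SIRB, the ferrochelatase of sirohaem synthesis, fell in wt at 120 min by 0.47 ± 0.08 (adjusted p = 0.000137), and was higher in flu than in wt at that time by 0.30 ± 0.08 (adjusted p = 0.00359). In dark fc1 it was lower than in wt by 0.36 ± 0.08 (adjusted p = 0.0267). HEMA3 and hemb2 had low signals, between 3.15 and 4.25, and both were called higher in flu at 30 min (0.45 ± 0.13 and 0.48 ± 0.16), the time at which its arrays had the narrow spread of signals given above. In flu against the dark, 3 of the 6 genes were called lower and 2 higher at 30 min (23.8% and 24.2% of all probe sets), and 3 lower at 120 min (21.9%). At 120 min 4 of the 6 fell in fc2 (14% of all probe sets called lower), 2 fell and 1 rose in fc1 (19.1% lower and 15.3% higher), and 3 fell in wt (18.8% lower).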

How the data were processed

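The authors hybridised biotin-labelled cRNA of whole seedlings to Affymetrix arrays and deposited log2 signals made with RMA, per the submitters' processing notes. RMA corrects background, normalizes between arrays and summarises probes. Its version is not given in the sources used here. All 22217 probe sets were tested without further normalization. The platform table gave 1 gene to 13171 probe sets, several to 482 and none to 8564, with names updated through the TAIR10.1 gene table. The 12 group means were estimated together from 24 arrays with limma 3.58.1 (R 4.3.3). For 30 contrasts, 1 of them chosen after seeing the data, two-sided moderated p-values were adjusted by Benjamini and Hochberg's method over the probe sets of that contrast. Groups of 2 share 1 estimate of the spread, which may be too small for noisier groups.

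The genes named are the 7 members, the other pathway genes with a probe set of their own, and the genes with the most similar pattern (2 per member and 5 for the members' mean, by Pearson correlation over 12 group means). The members and lists were chosen with earlier results of these data known. No promoter or protein sequences were used here. In a simulation of 22217 probe sets, for flu at 120 min against 0 min, 50 per size of change were altered and the others left unchanged. The fit recovered 100% of log2 falls of 2, 92% of falls of 1 and 48% of falls of 0.5, with 6 false calls. In the data 46.1% of all probe sets were called in that comparison, so these rates need not hold there. Alternatives were reference-gene scaling, leaving out the dimmest 40% of probe sets (all 7 members stayed), trended and robust variances, the replicate block, a seed-maturation covariate and leaving out each array. The array interquartile range as a covariate was added after seeing the data. Averaging several probe sets of a gene did not apply, since each member had 1. Figures used Python 3.11.15, pandas 2.3.3 and matplotlib 3.10.9.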

Additional observations from a re-analysis of the deposited data

Results flagged for a closer look

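The values below are differences between light responses that passed the test of the difference itself, on the log2 scale, with limma (n = 2 arrays per group). They are given as values, with no explanation.

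In flu at 30 min the light response was lower than in wt for all 7 genes. The values were -0.83 for HEMA2 (adjusted p = 0.00539), -0.77 for GSA1, -1.73 for HEME1, -1.45 for HEME2, -1.41 for CHLI2, -1.09 for CHLM and -1.58 for AT1G74470. With the array interquartile range as a covariate HEMA2 had -0.42 and was not called (adjusted p = 0.0901), and with reference-gene scaling GSA1 had -0.43 and was not called (adjusted p = 0.0553).

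In flu at 120 min the light response was lower than in wt for 6 genes. The values were -1.21 for GSA1, -2.98 for HEME1, -2.67 for HEME2, -3.77 for CHLI2, -2.74 for CHLM and -3.52 for AT1G74470, each kept under every alternative run.

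In fc2 at 120 min the light response was lower than in wt for HEME1 (-0.91), HEME2 (-0.86), CHLI2 (-0.79) and CHLM (-0.58). The call of CHLI2 was lost with the seed-maturation covariate (adjusted p = 0.0556) and without any of 5 single arrays. In a comparison with fc1 that was chosen after the data were seen, the response in fc2 was lower at 120 min for GSA1 (-0.81), HEME1 (-1.33), HEME2 (-1.29), CHLI2 (-1.17) and CHLM (-0.83).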

How the results depend on the processing

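The number of the 7 genes called was recomputed in 30 comparisons under the alternatives, which gave 328 counts, of which 307 stayed within 1.5 times the count as deposited and 21 did not. No called change turned its direction. Of 2296 recomputed changes of single genes, 2210 kept their side of the threshold, 45 lost their call and 41 gained one. The cause was not tested.

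With reference-gene scaling the count was 4 in place of 1 in wt at 120 against 0 min and at 120 against 30 min (26.8% and 34.5% of all probe sets called under this scaling), 0 in place of 1 in flu against wt at 0 min (2.51%) and 3 in place of 0 in fc1 against wt at 0 min (17.6%). With the array interquartile range as a covariate it was 3 and 4 in these wt comparisons (33.5% and 32.4%) and 3 in flu against wt at 0 min (5.35%). With trended and robust variances it was 3 in wt at 120 against 30 min (28.1%) and 2 in flu against wt at 0 min (4.02%). Without the dimmest 40% of probe sets it was 3 in wt at 120 against 30 min (46.1% of those left) and 1 in fc1 against wt at 120 min (18%). Leaving out each array in turn gave 0 to 1 in wt at 120 against 0 min, 1 to 4 in wt at 120 against 30 min, 2 to 4 in fc2 against wt at 120 min (5 with all arrays), 0 to 1 in flu against wt at 0 min, 0 to 1 in fc1 against wt at 30 min and 0 to 3 in fc1 against wt at 120 min.

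The labels give the groups the same replicate numbers without saying that a number marks a shared batch. Over 66 pairs of groups the correlation of the difference between replicates 1 and 2 ranged from -0.54 to 0.40 (median -0.01), so the numbers were not taken as pairs. With the replicate block no count moved by over 1.5 times and 1 call was lost, that of GSA1 in fc2 against wt at 120 min (-0.29, adjusted p = 0.0538). In a simulation of flu at 120 against 0 min with few probe sets changed, a log2 fall of 0.5 was recovered in 48% of cases. Changes were simulated in no other comparison.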
